A study of Mus musculus with 7 samples.

Results

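The mouse H2 genes, the major histocompatibility complex (MHC) genes of the mouse, were examined in the HPC7 line together with the accessory genes that their products depend on. The members are the protein-coding genes of the GENCODE M21 annotation (mm10) whose symbol begins with H2-, plus B2m, Tap1, Tap2, Tapbp, Ciita and Cd74. This gave 40 of the 21938 protein-coding genes outside the mitochondrial genome. By class these are 2 classical class I genes, 22 non-classical class I genes, 4 classical and 5 non-classical class II genes, 6 accessory genes and H2-Ke6, an enzyme gene. A further 11 genes with an H2- symbol are typed as pseudogenes and were left out. The assay was bulk ATAC-seq, in which a transposase cuts accessible DNA, and each library is a list of open chromatin regions (OCRs), or peaks. HPC7 cells are an established line of mouse blood progenitors, grown here with mouse stem cell factor in medium with 5% bovine calf serum. The 7 libraries (HPC7-1, HPC7-2, HPC7-4, HPC7-5, HPC7-6, HPC7-7 and HPC7-8) are replicates of that single condition, so that nothing here is a contrast between treatments. The study describes its libraries as coming from independent culture batches, and it excluded a further library with very few reads. Some peaks carry name prefixes that resemble treatments, which the labels do not mention and which were not used. The H2 haplotype of the line is not given in the sources used here, and its differences from the reference genome in these genes were not tested.

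Class I molecules display peptides from inside the cell to cytotoxic T cells, and they consist of a heavy chain, encoded by an H2 gene, and the light chain β2-microglobulin. Peptides made by the proteasome enter the endoplasmic reticulum through the Tap1/Tap2 transporter and are loaded with the help of tapasin, the product of Tapbp. Class II molecules, pairs of an alpha and a beta chain, display peptides from endosomes to helper T cells, with the invariant chain Cd74 as their chaperone and the DM and DO proteins as peptide editors. Nearly all nucleated cells use class I, whereas class II belongs mainly to professional antigen-presenting cells, where the coactivator Ciita controls it.

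A promoter OCR is a peak of which at least 1 base lies within 1 kb of any annotated start site of the gene. Its level is the fold enrichment that the peak caller gave at the summit over the background of that library. Where a gene had several promoter peaks the highest was used. The percentile is the rank of that value among all peaks of the same library. A gene is called open where it had a promoter OCR in all 7 libraries, and a gene without one had no peak past the caller's threshold. The peak lists held 84593 to 132852 peaks, and background estimated from the spacing of the fold values corresponded to 4.44 to 20.4 reads per summit. HPC7-6 had the lowest value for 20 of the 22 members with a promoter OCR in every library. Values below are given in the order of the libraries above, and errors are SD over the 7 libraries. Of 8 hematopoietic progenitor markers (Kit, Cd34, Gata2, Tal1, Lmo2, Lyl1, Ptprc and Spi1) all 8 had a promoter OCR in all 7 libraries. Of 16 markers of other cell types 10 had none in any library, including all 4 for B cells and all 3 for T cells. The other 6, Flt3, Cd68, Itgax, Csf1r, Col1a1 and Pdgfra, had one in all 7.

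Promoter sequences of some class I genes resemble each other. The stretches below are from the classical genes H2-K1 and H2-D1 and from 3 non-classical neighbours. Each holds the inverted CCAAT box (ATTGG, in capitals). All but that of H2-Q4 also hold the letters of an NF-kB site (GGGGA directly followed by TTCCC, in capitals). The stretches are taken from the RefSeq promoters of GRCm38.p6 and are written 5′ to 3′ on the strand of the gene.
H2-K1 chr17:34000349-34000466, minus strand: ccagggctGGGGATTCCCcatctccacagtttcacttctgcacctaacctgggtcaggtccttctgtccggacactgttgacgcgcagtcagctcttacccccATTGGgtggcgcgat
H2-D1 chr17:35262915-35263032, plus strand: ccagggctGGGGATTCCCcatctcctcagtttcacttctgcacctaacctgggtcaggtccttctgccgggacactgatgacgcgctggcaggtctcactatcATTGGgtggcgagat
H2-Q6 chr17:35424668-35424785, plus strand: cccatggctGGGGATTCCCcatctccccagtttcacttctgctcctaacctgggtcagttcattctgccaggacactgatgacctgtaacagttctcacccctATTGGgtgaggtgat
H2-Q7 chr17:35439012-35439129, plus strand: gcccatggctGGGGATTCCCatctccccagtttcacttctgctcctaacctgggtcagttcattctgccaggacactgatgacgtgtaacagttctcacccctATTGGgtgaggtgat
H2-Q4 chr17:35379435-35379552, plus strand: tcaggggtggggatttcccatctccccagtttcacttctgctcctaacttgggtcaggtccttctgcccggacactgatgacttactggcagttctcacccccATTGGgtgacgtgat
The stretch of H2-K1 was 89.8% identical to that of H2-D1, 83.2% to that of H2-Q6, 82.5% to that of H2-Q7 and 85.6% to that of H2-Q4. H2-Q6 and H2-Q7 were 97.5% identical to each other. The stretch of H2-Q2 before its inverted CCAAT box, not printed, was less similar, with 55.5% identity to H2-K1 and 59.7% to H2-D1. The first 4 genes printed held the NF-kB letters, and H2-Q4 did not in this window. Its stretch holds ggggatttccc, which departs from these letters. Only exact matches were sought, so H2-Q4 and the other members are not shown to lack the site. Of the 16522 protein-coding genes with a promoter sequence 0.151% held the exact letters on either strand. Among the 34 members with a sequence they were those 4 genes, of which H2-K1 and H2-D1 had a promoter OCR in all 7 libraries and H2-Q6 and H2-Q7 did not.

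A promoter OCR was present in all 7 libraries for 22 of the 40 members (55.0%), beside 55.9% of all protein-coding genes. On chromosome 17, where 37 of the members lie, the share was 64%, and among the 144 other coding genes between the outermost members it was 66.7%. The members as a whole were therefore near the genome's share and below that of their neighbours. A further 3 members, H2-Q6, H2-Q7 and H2-T3, had one in some libraries (7.5%, against 5.91% of all coding genes, 8.62% on chromosome 17 and 8.33% of the neighbours), and 15 had none (37.5%, against 38.2%, 27.4% and 25.0%). The number of members with one ranged from 22 to 25 per library. The classes were far apart. Both classical class I genes, all 9 class II genes of both kinds and 5 of the 6 accessory genes (83.3%) had a promoter OCR in every library. Of the 22 non-classical class I genes 5 did (22.7%), 3 had one in some libraries (13.6%) and 14 in none (63.6%). With genes without a peak counted as 0, the median percentile over the libraries was 95.7 ± 0.902 for the classical class I genes, 93.0 ± 1.23 for the accessory genes, 88.3 ± 1.95 for the non-classical class II genes and 64.1 ± 7.91 for the classical class II genes (SD, n = 7). It was 0 in every library for the non-classical class I genes. Over the 9 class II genes together it was 86.5 ± 2.76, and it was 51.4 when the rank was taken among promoter OCRs only. The same median was 75.2 ± 4.22 over all coding genes, 88.2 ± 1.87 over chromosome 17 and 90.4 ± 1.65 over the neighbours. Genes of a class are not replicates, so these are descriptions.

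**Figure D1:**
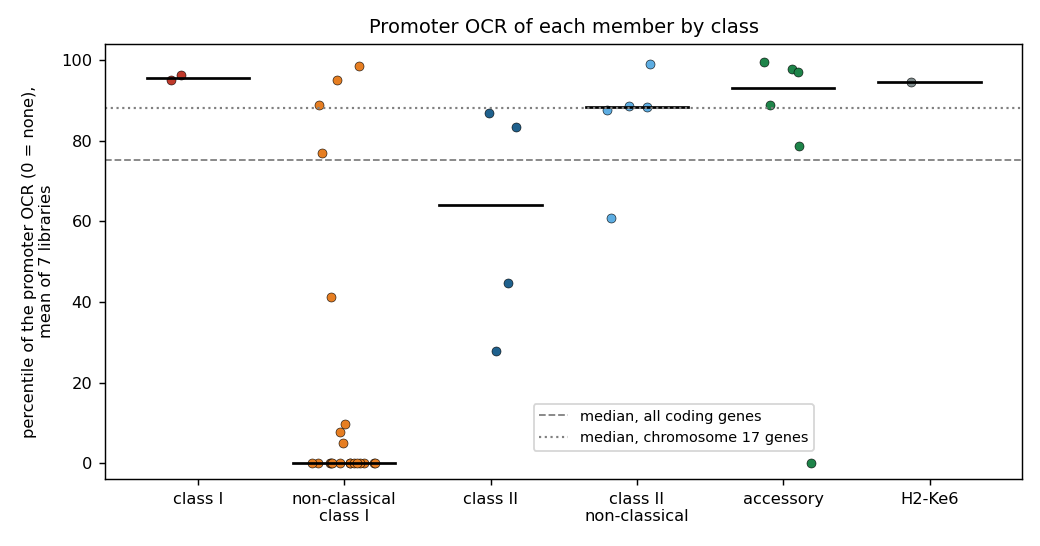
Percentile of the highest promoter OCR of each of the 40 members (y axis, mean of 7 libraries, 0 for libraries without one) by class (x axis), with 1 point per gene and a black line at the class median. The dashed and dotted lines are the medians of all protein-coding genes (75.2) and of chromosome 17 genes (88.2). Non-classical class I genes lie mostly at 0, and both classical class I genes lie above 90.

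The 2 classical class I heavy chain genes, which present peptides to cytotoxic T cells, were strongly open. H2-K1 (chr17:33996017-34000347, minus strand) had fold enrichments of 112, 88.9, 95.7, 122, 61.9, 80.5 and 109, with a mean of 95.8 ± 20.7 (SD, n = 7) and percentiles of 93.1 to 96.3. The summit lay at -49 to -21 bases from its start (negative numbers lie before the start), within the stretch printed above. H2-D1 (chr17:35262730-35267499, plus strand) gave 137, 96.3, 103, 145, 82.8, 94.1 and 122, a mean of 111 ± 23.4 (SD, n = 7), with its summit in an exon 182 to 183 bases inside the annotated gene, directly before the stretch printed above. H2-D1 exceeded H2-K1 in all 7 libraries, although the ranges of the genes overlapped between libraries. The within-library difference of H2-K1 minus H2-D1 was -0.22 ± 0.11 on the log2 scale (exact two-sided sign-flip permutation test over 7 libraries, p = 0.0156, adjusted p = 0.0182). That p is the smallest that 7 libraries allow, and all adjusted values here cover 14 pairs of members.

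A second OCR of H2-D1 stood apart from its promoter. It lay at chr17:35256600-35260050, with a summit at -3470 bases, in intergenic DNA. It reached 91.2 ± 20.7, and it was present in all 7 libraries with values of 64.5 to 119. Downstream of H2-D1 an OCR at chr17:35269710-35270579 had 29.2 ± 8.17. Around H2-K1 the strongest OCR away from the promoter, at chr17:33991735-33992625 beyond the 3′ end, had 17.8 ± 4.36.

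B2m, which encodes the light chain of every class I molecule and lies on chromosome 2 (chr2:122147686-122153083, plus strand), had values in the range of the heavy chain genes. Its values were 134, 107, 133, 149, 82.0, 109.9 and 127, with a mean of 120.4 ± 22.3 (SD, n = 7). Relative to H2-K1 it was higher in 7 of 7 libraries, by 0.34 ± 0.10 log2 units (exact permutation test, adjusted p = 0.0182). Relative to H2-D1 it was higher in 5 of 7, by 0.12 ± 0.14, with library differences from -0.03 to 0.37, and by 0.07 without HPC7-4 (exact permutation test, adjusted p = 0.0625). This was the only one of the 14 pairs tested that did not pass 0.05. The interferon-stimulated response element (ISRE), read here as TTTC, 2 bases of any kind and TTTC on either strand, was found in the promoters of B2m and of the non-classical genes H2-T22 and H2-T23, all open in every library. These are 3 of 34 members (8.82%), against 4.02% of genes with a promoter sequence. Only exact matches were sought, so the other members are not shown to lack the element. The stretches printed above for H2-K1, H2-D1, H2-Q6, H2-Q7 and H2-Q4 all hold tttcacttctgc, which departs from these letters. Of these genes only H2-K1 and H2-D1 were open in every library. The matches are in capitals below.
B2m chr2:122147533-122147572, plus strand: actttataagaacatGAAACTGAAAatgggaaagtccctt
H2-T22 chr17:36042909-36042948, minus strand: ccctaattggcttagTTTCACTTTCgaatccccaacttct
H2-T23 chr17:36032801-36032840, minus strand: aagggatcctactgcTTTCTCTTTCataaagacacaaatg

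**Figure D2:**
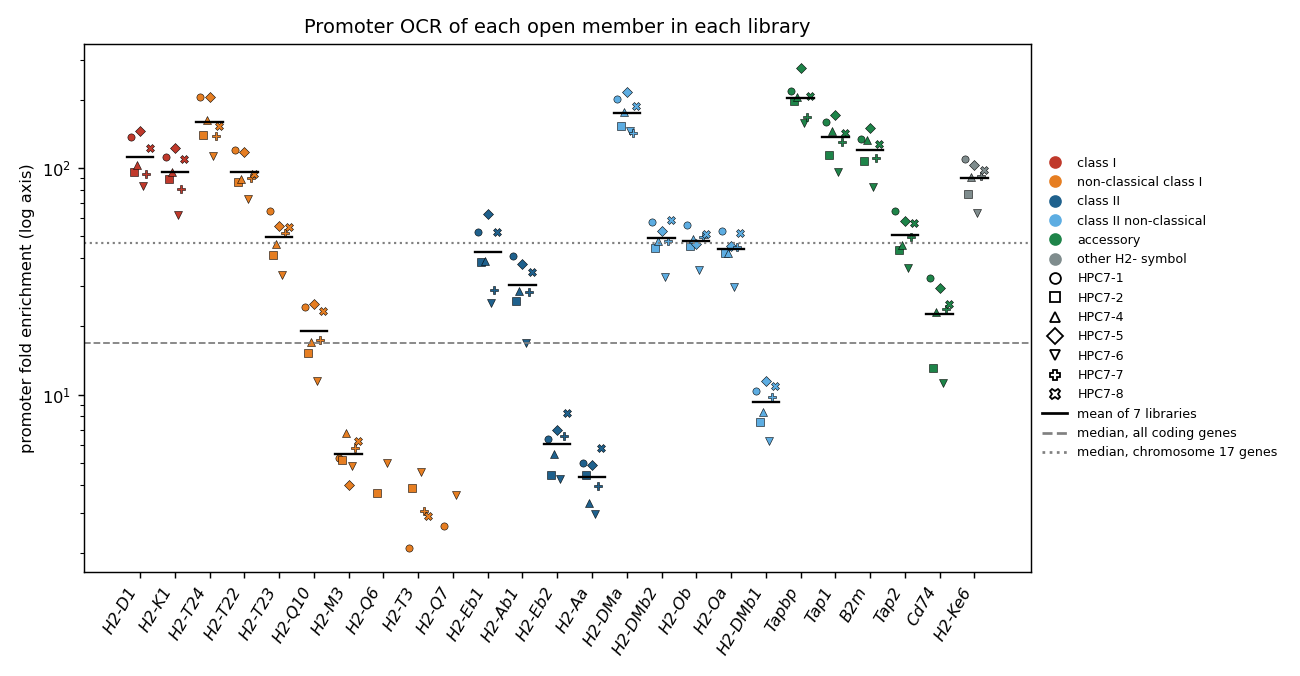
Promoter fold enrichment (y axis, log scale) of the 25 members with a promoter OCR in any library (x axis), with 1 symbol per library, colours for the classes and a black line at the mean of genes open in 7 libraries. The dashed line (16.9) is the median of all protein-coding genes and the dotted line (46.5) that of chromosome 17 genes. HPC7-6 gives the lowest value for 20 genes, and H2-Q6, H2-T3 and H2-Q7 stay at 5.01 or less.

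Non-classical class I genes resemble the classical ones but vary less between mice, and many have narrow expression or specialised ligands. Among these genes the open promoters lay mainly in a compact group on the T side of the complex. H2-T24 (chr17:36005695-36020560, minus strand) had 205, 139, 163, 204, 113, 138 and 153, a mean of 159 ± 34.7 (SD, n = 7) and percentiles of 98.2 to 99.5. It was the highest of the 22 non-classical class I genes, and its mean was above those of both classical genes. H2-T22 (chr17:36037128-36042747, minus strand), whose product is bound by receptors of some gamma delta T cells, had 119, 86.7, 89.1, 118, 72.6, 90.3 and 93.6, with a mean of 95.7 ± 17.1 (SD, n = 7). That peak also covers the start of the coding model Gm6034, but its summit was nearest to an H2-T22 start in all 7 libraries. H2-T23 (chr17:36029773-36032855, minus strand) encodes Qa-1, which presents leader peptides of other class I molecules to NK cell receptors. It had 64.3, 41.2, 46.3, 55.3, 33.6, 51.8 and 54.9, with a mean of 49.6 ± 10.2 (SD, n = 7). H2-T23 lay below H2-K1 in every library, with a difference of -0.95 ± 0.18 log2 units (exact permutation test, adjusted p = 0.0182). The 3 T genes thus spanned levels from below to above the classical genes.

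The strongest OCR of this group was not at a member's start. It lay at chr17:36000989-36002976, downstream of H2-T24 in an intron of A930015D03Rik, a gene that overlaps the H2-T24 and H2-T23 promoters. It had 178.9 ± 25.6, with values from 145 to 219. H2-T3 (chr17:36185572-36190287), the thymus leukemia antigen, had weak promoter peaks in 5 libraries of 2.11 to 4.54, with 19 to 44 reads at the summit, and none in HPC7-4 and HPC7-5.

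In the Q group next to H2-D1, H2-Q10 (chr17:35470089-35474563, plus strand), which encodes a secreted class I molecule best known from liver, had its promoter OCR well before the gene. Its values were 24.4, 15.2, 17.04, 25.1, 11.4, 17.5 and 23.4, with a mean of 19.2 ± 5.21 (SD, n = 7), and the summit lay at -975 to -907 bases, so that no OCR sat at the start itself. With a window of 500 bases it was lost. H2-Q6 (chr17:35424850-35430055) had a peak in HPC7-2 (3.67) and HPC7-6 (5.01) only, 812 to 928 bases inside the gene. H2-Q7 (chr17:35439155-35443773), which encodes Qa-2, had one in HPC7-1 (2.62) and HPC7-6 (3.60) only. The promoter windows of H2-Q6 and H2-Q7 were the least unique among the members. Of words of 150 bases, 70.5% in H2-Q6 and 61.4% in H2-Q7 occurred once in the reference genome, against a median of 100% over the members and 77.0% in H2-T23, which was open. The part of this repetition in the low values was not tested. Nearby OCRs were found in all 7 libraries at 9.28 ± 2.13 (chr17:35420253-35421021, before H2-Q6) and 8.46 ± 1.99 (chr17:35434769-35435272, before H2-Q7). H2-Q1, H2-Q2 and H2-Q4 had no promoter OCR in any library. All of their 150-base words were unique, including those of H2-Q4, whose printed stretch was closer to H2-K1 than those of H2-Q6 and H2-Q7.

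The M group, on the far side of the complex, had almost no promoter OCRs. H2-M3 (chr17:37270220-37274484, plus strand), which presents N-formylated peptides, was the only one of its 12 genes with a promoter OCR, at 4.002 to 6.74 with a mean of 5.44 ± 0.919 (SD, n = 7). H2-T23 exceeded it by 3.18 ± 0.39 log2 units in 7 of 7 libraries (exact permutation test, adjusted p = 0.0182). No promoter OCR was found in any library for H2-M10.1, H2-M10.2, H2-M10.3, H2-M10.4, H2-M10.5, H2-M10.6, H2-M11, H2-M9, H2-M1, H2-M5 and H2-M2. The M10 genes are known from the vomeronasal organ, where pheromone receptor neurons express them. All 150-base words of these 11 promoter windows were unique. H2-M5 had no peak within 1 kb, but a strong OCR of 99.8 ± 15.2 lay before it at chr17:36991251-36993573, with the summit at -2944 bases. It was reached when the window was widened to 3 kb.

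The X box of class II promoters (AG, 2 bases of any kind, AC, 1 base and GATG) was also found in H2-M10.1, H2-M10.2, H2-M10.5 and H2-M10.6, which had no promoter OCR, without an inverted CCAAT box 10 to 40 bases after it. The X box was matched in 8 members (23.5%, against 0.962% of genes with a sequence), of which 4 were open in every library and 4 were not.

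Peak density also differed along the chromosome. From Tapbp to H2-Eb2 the libraries held 236 ± 22.3 peaks per Mb (SD, n = 7). There 14 of 14 members had a promoter OCR in all 7 libraries, as did 14 of 14 other coding genes. Between H2-Eb2 and H2-D1, where no member lies, density was 209 ± 21.3 per Mb, with 50 of 64 coding genes open. From H2-D1 to H2-Q10 density was 68.1 ± 8.56 per Mb, with 2 of 7 members open and no other coding gene there. From H2-T24 to H2-T3 it was 148 ± 38.7, with 3 of 4 members and 2 of 5 other coding genes open. From the first to the last H2-M10 gene it was 21.5 ± 4.19 per Mb, with 0 of 9 members open and no other coding gene there. From H2-M5 to H2-M2 it was 49.2 ± 7.11 per Mb, with 1 of 3 members and 2 of 23 other coding genes open. Among those 23 are 19 olfactory receptor genes, of which 0 had a promoter OCR in all 7 libraries. Over the whole of chromosome 17 peak density was 70.7 ± 10.0 per Mb. The longest stretch of the span without a peak in any library was 225 kb (chr17:36500841-36726079), and it holds H2-M11, H2-M9 and H2-M1.

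**Figure D3:**
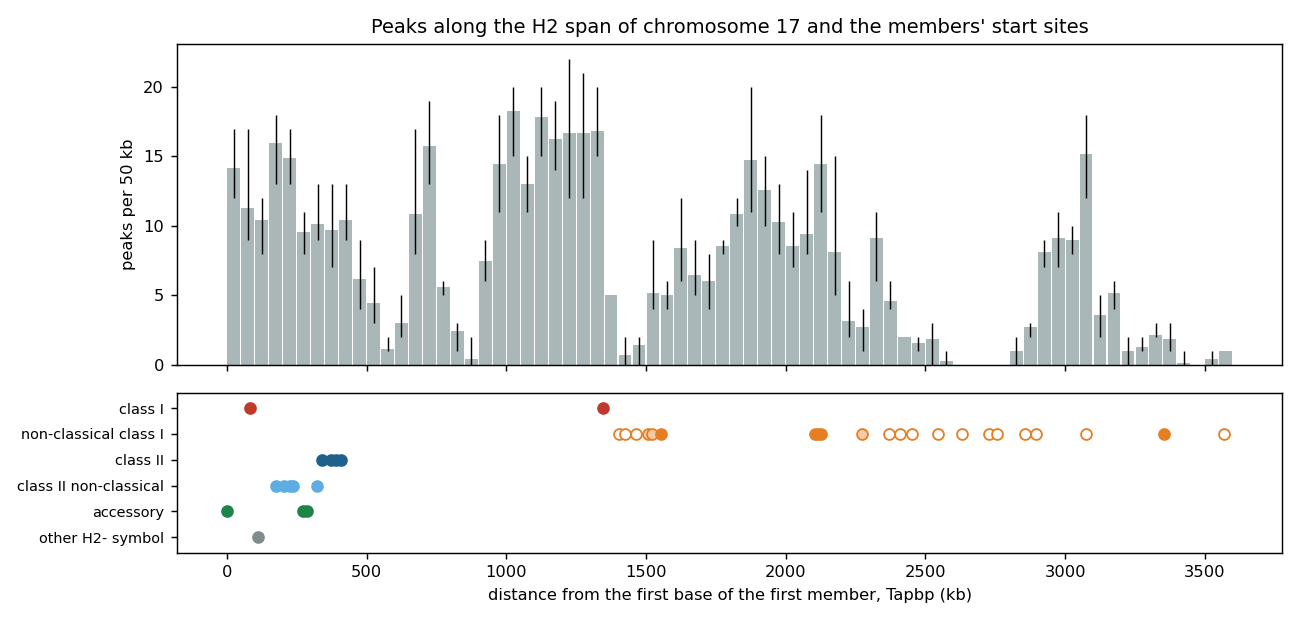
Peaks per 50 kb (upper panel, mean of 7 libraries with lines from the lowest to the highest library) against the distance in kb from the first base of Tapbp, over the 37 members of chromosome 17. The lower panel marks the members' start sites by class, filled for a promoter OCR in 7 libraries, pale for fewer and white for none, and most white points, H2-M5 excepted, lie where few or no peaks were called.

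Classical class II genes encode the alpha and beta chains that present peptides to helper T cells. All 4 had a promoter OCR in every library. Their levels ran from near the weakest to about the chromosome's median of 46.5, in which genes without a peak count as 0. Over open genes only, the chromosome's median was 107. H2-Eb1, a beta chain gene (chr17:34305867-34316674, plus strand), had 52.4, 38.4, 38.7, 62.8, 25.3, 28.8 and 52.0, with a mean of 42.6 ± 13.6 (SD, n = 7) and its summit at -79 to -51 bases. H2-Ab1, the beta chain of the I-A molecule (chr17:34257689-34269419, plus strand), had 40.8, 25.9, 28.8, 37.6, 16.9, 28.4 and 34.8, with a mean of 30.4 ± 8.05 (SD, n = 7). This peak sat on an internal start 5560 bases into the gene, in an exon. At its 5′ start the OCR (chr17:34257502-34258217) had 14.1 ± 3.15, from 10.3 to 17.9. H2-Eb2 (chr17:34325665-34341412, plus strand), a second beta chain gene, had 6.36, 4.41, 5.44, 6.96, 4.22, 6.55 and 8.30, with a mean of 6.04 ± 1.45 (SD, n = 7). H2-Aa, the alpha chain of I-A (chr17:34282744-34287823, minus strand), was the lowest of the open members, from 2.97 to 5.83 with a mean of 4.33 ± 1.00 (SD, n = 7) and 18 to 106 reads at the summit. It was lost from the list when a -log10 q of at least 5 was required. The partner chains of I-A thus differed, with H2-Aa below H2-Ab1 in 7 of 7 libraries by -2.80 ± 0.25 log2 units (exact permutation test, adjusted p = 0.0182). H2-Eb1 exceeded H2-Ab1 in 7 of 7, by 0.47 ± 0.23, with a smallest difference of 0.02 in HPC7-7 (exact permutation test, adjusted p = 0.0182). With the outermost start of each gene only, where H2-Ab1 has the OCR of 14.1, these differences became -1.71 ± 0.17 for H2-Aa and 1.56 ± 0.20 for H2-Eb1.

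Class II promoters are known for an X box followed by a Y box, the inverted CCAAT. An X box with ATTGG 10 to 40 bases after it on the same strand was found in 3 of the 34 members, H2-Eb1, H2-Eb2 and H2-DMb1, and in 0.0424% of genes with a promoter sequence (7 of 16522). These stretches are printed with both boxes in capitals. They are followed by 3 class II promoters that held the inverted CCAAT without a match to the X box letters at that distance. Only exact matches were sought, so an X box that departs from these letters would be missed. H2-Oa has a match farther off, at -141 to -131 bases from its start.
H2-Eb1 chr17:34305763-34305822, plus strand: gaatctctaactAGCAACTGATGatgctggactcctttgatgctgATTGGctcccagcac
H2-Eb2 chr17:34325530-34325589, plus strand: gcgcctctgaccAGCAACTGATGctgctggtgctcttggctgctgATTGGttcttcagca
H2-DMb1 chr17:34153085-34153144, plus strand: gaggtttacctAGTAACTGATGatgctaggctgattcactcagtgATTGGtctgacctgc
H2-Aa chr17:34287857-34287916, minus strand: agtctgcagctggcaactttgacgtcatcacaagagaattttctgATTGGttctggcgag
H2-Ob chr17:34238803-34238862, plus strand: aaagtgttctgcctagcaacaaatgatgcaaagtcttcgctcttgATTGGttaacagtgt
H2-Oa chr17:34092291-34092350, plus strand: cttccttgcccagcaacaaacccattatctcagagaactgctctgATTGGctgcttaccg
The boxes were 22, 22 and 23 bases apart in the first 3 genes, and these genes had mean promoter fold enrichments of 42.6, 6.04 and 9.24. H2-Aa, H2-Ob and H2-Oa, without that match, had 4.33, 47.4 and 44.0. Genes with and without the match thus overlapped in level. The letters ATTGG were found on either strand in 31 of the 34 members (91.2%), against 42.1% of genes with a sequence. These were 17 of the 18 open in every library and 14 of the other 16. Tap1, H2-T23, H2-M10.2, H2-M10.3, H2-M10.5, H2-M10.6, H2-M11 and H2-M2 held them only on the opposite strand, which reads CCAAT along the gene and is not the inverted orientation. The searched windows lie at RefSeq starts, some away from the summit of the reported OCR. For H2-DMb2 the window was chr17:34144999-34145298 and the summit 34143245. For Tapbp these were chr17:33919228-33919527 and 33915978, and for H2-Ob, compared above, chr17:34238655-34238954 and 34239866. For H2-DMa the window was chr17:34125268-34125567, with summits at 34119435 and 34135494. No promoter sequence was at hand for H2-Ab1, H2-Q1, H2-T24, Tap2, Ciita and the invariant chain gene.

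The most open region of the H2-Eb2 gene was an intron. An OCR at chr17:34329527-34330503, 4348 bases into H2-Eb2, had 118.7 ± 25.0, with values from 81.5 to 157, all above the highest promoter value of that gene (8.30). It also lay above the promoter OCRs of all 4 classical class II genes, whose highest value was 62.8.

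The non-classical class II genes encode H2-DM, which exchanges peptides on class II molecules, and H2-DO, which restrains it. H2-DMa (chr17:34119541-34139101, plus strand) had 202, 153, 176, 216, 145, 143 and 187, a mean of 175 ± 28.9 (SD, n = 7) and percentiles of 98.6 to 99.4. It has 2 strong promoter OCRs. One, at chr17:34116278-34125458 with 172 ± 25.7, also covers the start of the bromodomain gene Brd2 and has its summit in a Brd2 exon. The other, at chr17:34134252-34136296 and 15953 bases into the annotated gene, had 157 ± 31.7. H2-DMb2 (chr17:34143307-34151555, plus strand) had 57.4, 44.3, 47.6, 52.9, 33.0, 47.8 and 59.1, with a mean of 48.9 ± 8.85 (SD, n = 7). H2-DMb1 (chr17:34153072-34160230, plus strand) had 10.34, 7.53, 8.40, 11.5, 6.26, 9.75 and 10.9, with a mean of 9.24 ± 1.91 (SD, n = 7). The DM alpha chain gene exceeded H2-DMb1 in 7 of 7 libraries by 4.25 ± 0.22 log2 units (exact permutation test, adjusted p = 0.0182), with the peak shared with Brd2 included.

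H2-Ob (chr17:34238903-34254414, plus strand), the beta chain of H2-DO, had 56.1, 45.4, 48.5, 46.1, 35.4, 49.6 and 51.0, with a mean of 47.4 ± 6.40 (SD, n = 7) and a summit in an intron 963 bases inside the gene. H2-Oa (chr17:34092340-34095234, plus strand), its alpha chain, had 52.8, 41.9, 42.1, 45.4, 29.7, 44.7 and 51.4, with a mean of 44.0 ± 7.60 (SD, n = 7). The difference of H2-Oa minus H2-Ob was -0.12 ± 0.09 log2 units, lower in 6 of 7 libraries (exact permutation test, adjusted p = 0.0337). That call was lost when any 1 of HPC7-1, HPC7-2, HPC7-4, HPC7-5, HPC7-6 and HPC7-7 was left out (differences -0.13 to -0.09, adjusted p 0.0625 to 0.0673) and was kept without HPC7-8 (-0.14). Before H2-Ob another OCR, at chr17:34234723-34235609 with its summit at -3723 bases in intergenic DNA, had 56.1 ± 10.7.

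**Figure D4:**
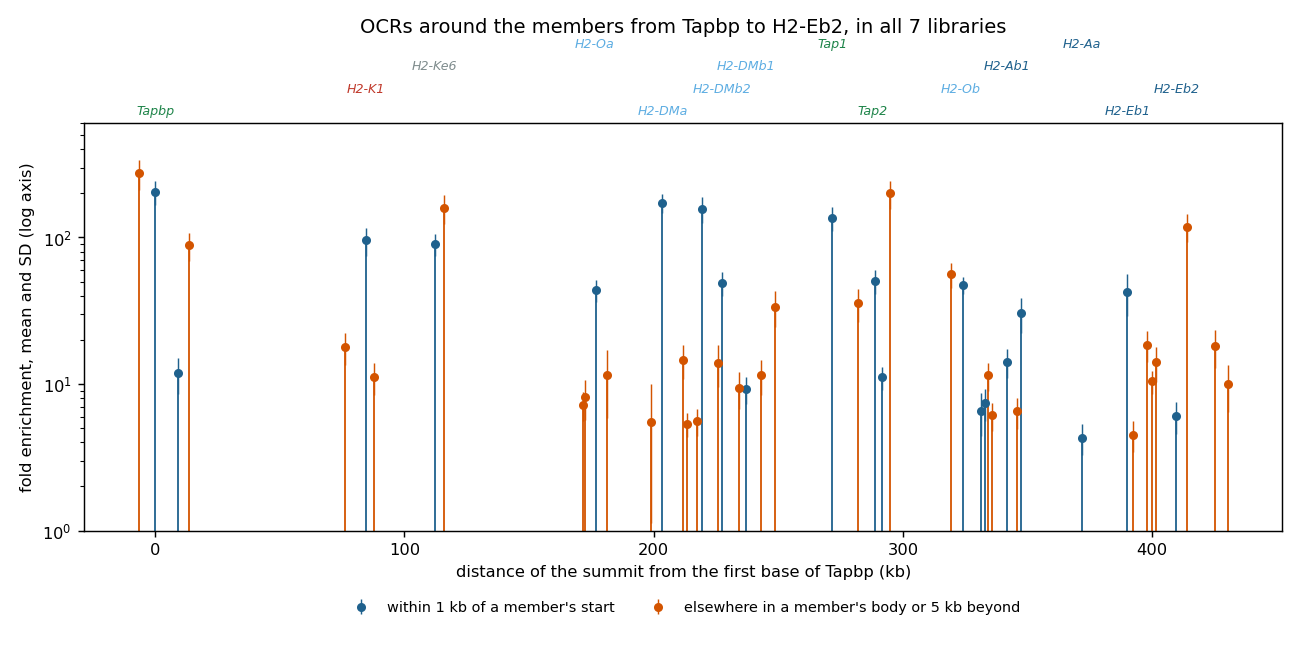
OCRs found in all 7 libraries around the 14 members from Tapbp to H2-Eb2, with the distance of the summit from the first base of Tapbp (x axis, kb) and the fold enrichment (y axis, log scale, mean with SD over 7 libraries). Blue points (20) are OCRs within 1 kb of a member's start and orange points (29) are others that reach the gene or the 5 kb beyond it, and the gene names stand above their outermost start. Several orange points are as high as the blue ones, such as those before Tapbp (275.5) and in introns of Tap2 (199.9) and H2-Eb2 (118.7).

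The peptide transporter genes differed from each other. Tap1 (chr17:34187553-34197225, plus strand) had 158, 114, 145, 171, 96.1, 129 and 142, with a mean of 137 ± 25.7 (SD, n = 7). The peak also covers the start of Psmb9, an immunoproteasome subunit gene read in the opposite direction, and the summit was nearest to a Tap1 start in all 7 libraries. Tap2 (chr17:34203527-34216321, plus strand) had 64.3, 43.5, 45.8, 58.1, 36.0, 49.6 and 56.8, with a mean of 50.6 ± 9.74 (SD, n = 7) and a summit in an exon at an internal start, 1021 bases into the gene. Tap1 exceeded Tap2 in 7 of 7 libraries by 1.43 ± 0.13 log2 units (exact permutation test, adjusted p = 0.0182). With a window of 3 kb that order turned to -0.54 ± 0.20 (exact permutation test, adjusted p = 0.0219), since the window then reached an intronic OCR of Tap2 at chr17:34209678-34212209. That OCR had 199.9 ± 42.4, from 134.5 to 248, above every value of the Tap2 promoter. B2m lay slightly below Tap1, with a difference of -0.18 ± 0.06 in 7 of 7 libraries (exact permutation test, adjusted p = 0.0182).

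Tapbp, the tapasin gene (chr17:33915899-33929292, plus strand), had the highest promoter values of all members, 218, 197, 206, 276, 157, 168 and 208, with a mean of 204 ± 38.4 (SD, n = 7). That peak is shared with Zbtb22, whose start was the nearest to the summit in all 7 libraries. When peaks counted only for the gene with the nearest start, Tapbp had 80.5 ± 33.8, from 63.0 to 114 in 6 libraries and 16.1 in HPC7-1. Tap1 minus Tapbp was -0.58 ± 0.15 log2 units with the shared peak, and Tap2 minus Tapbp was -2.02 ± 0.21, each in 7 of 7 libraries (exact permutation test, adjusted p = 0.0182 for both). With nearest starts only the first became 0.94 ± 1.05 (exact permutation test, adjusted p = 0.0199) and the second -0.49 ± 1.10, lower in 6 of 7 libraries (exact permutation test, adjusted p = 0.312). Without HPC7-1 these were 0.55 ± 0.15 and -0.90 ± 0.15, each with 6 of 6 libraries on the same side (exact permutation test, adjusted p = 0.0365 for both). Before Tapbp a still stronger OCR lay at chr17:33907579-33911972, with its summit at -6553 bases and a start of Daxx as the nearest. It had 275.5 ± 64.2, from 204 to 399.

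H2-Ke6 (chr17:34026033-34028060, minus strand), now known as the steroid dehydrogenase gene Hsd17b8, is no MHC molecule. It had 109.5, 76.8, 90.8, 103, 63.0, 91.7 and 97.4, with a mean of 90.3 ± 15.8 (SD, n = 7). In that peak the start of Ring1, a Polycomb gene, is also covered, and the summit was nearest to an H2-Ke6 start in 5 of 7 libraries.

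The class II coactivator and the invariant chain gene were unlike each other. Ciita (chr16:10480059-10528418, plus strand) had no OCR within 1 kb of any of its 8 start sites in any library. All 150-base words of those windows were unique. In its body 4 OCRs were found in all 7 libraries, at 13.5 ± 2.58, 8.52 ± 1.76, 18.6 ± 4.50 and 6.08 ± 1.44, 41363 to 47356 bases from the 5′ end. The start of Dexi, an overlapping gene read in the opposite direction, was the nearest to all 4. Cd74 (chr18:60803848-60812652, plus strand) had 32.6, 13.0, 23.1, 29.6, 11.3, 23.7 and 25.1, with a mean of 22.6 ± 7.92 (SD, n = 7). The peak reached the window only by its edge, for its summit lay 1139 to 2016 bases inside the gene. In HPC7-2 and HPC7-6 a separate, higher peak of the same OCR lay outside the window, at 20.9 and 19.7. With the highest peak of each library this OCR had 25.0 ± 4.63. The OCR at the start itself had 3.97 ± 0.690, from 3.20 to 5.10. Cd74 lay below H2-Ab1 by -0.47 ± 0.25 log2 units in 7 of 7 libraries (exact permutation test, adjusted p = 0.0182). With a window of 500 bases, or with summits within 1 kb only, the OCR at the start itself counted and the difference was -2.91 ± 0.45, and with 3 kb it was -0.26 ± 0.22 in 6 of 7 libraries. With the outermost start of each gene only, that order turned to 0.62 ± 0.38, again in 7 of 7 (exact permutation test, adjusted p = 0.0182). The pair of Cd74 and Ciita could not be compared, since Ciita has no value.

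**Figure D5:**
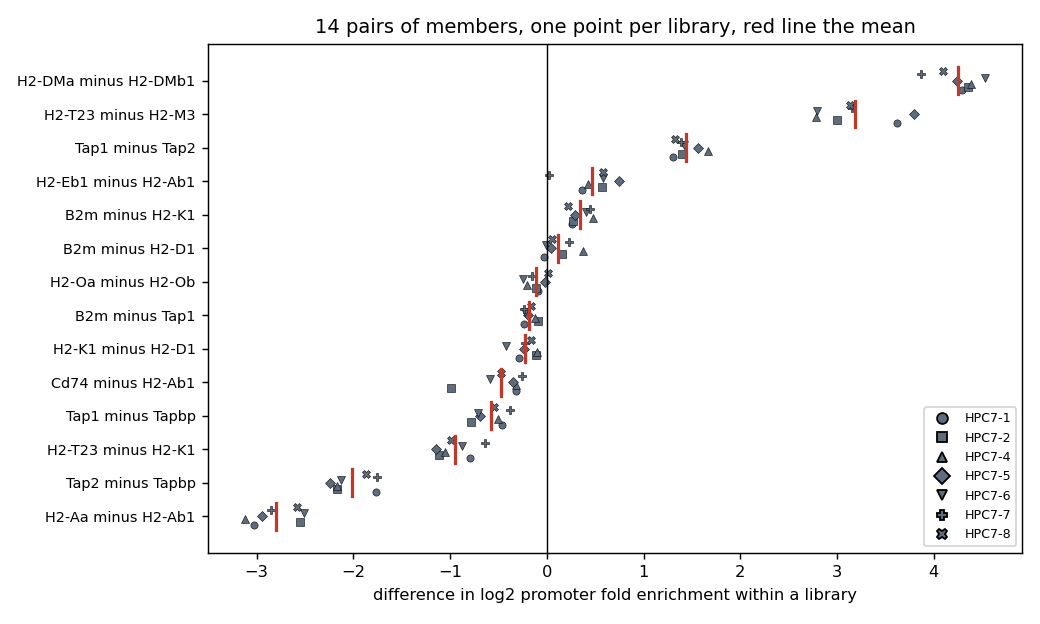
Difference in log2 promoter fold enrichment within a library (x axis) for the 14 pairs of members tested (y axis), with 1 symbol per library and a red line at the mean. In 12 pairs all 7 libraries lie on the same side of 0, and B2m minus H2-D1 and H2-Oa minus H2-Ob lie around it.

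Besides their own promoter peaks the members together had 88.0 ± 8.21 other peaks in their bodies and 5 kb on either side. The number ran from 81 to 102 per library, with a peak shared by neighbours counted for each. Promoter OCRs of other genes are included, such as that of H2-T23 beside H2-T22 and that of Slc39a7 beside H2-Ke6. By gene the mean number of other peaks ran from 0 to 8.71 in H2-DMa, and 10 members had none in any library. These 10 include 8 of the M10 block and H2-M3 and H2-M2.

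Other genes of antigen presentation were open throughout. Of a list of 30, 29 matched a protein-coding symbol, and all 29 had a promoter OCR in all 7 libraries (beside 55.9% of all coding genes). Their median fold enrichment was 84.2 ± 13.4 (SD, n = 7), near the 79.6 ± 14.3 of all coding genes open in 7 libraries. Psmb9, one of the 29, shares its peak with Tap1. The highest were Nfya, a subunit of the factor that binds the inverted CCAAT, at 298 ± 50.3, and the peptide-loading chaperone genes Calr at 233 ± 53.7 and Pdia3 at 219 ± 39.8. The X box factor genes Rfx5, Rfxap and Rfxank had 143 ± 25.7, 63.0 ± 10.2 and 166 ± 22.4. Nlrc5, the coactivator known for class I genes, had 18.4 ± 3.77, whereas Ciita had no promoter OCR. The cysteine protease gene Ctss, which trims the invariant chain in antigen-presenting cells, was the lowest of the list at 5.92 ± 1.89. The Rfx genes, Nlrc5 and Ctss were named after their values were seen.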

How the data were processed

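The 7 peak lists of bulk ATAC-seq from HPC7 cells were deposited as 1 narrowPeak file per library. Per the labels, the authors aligned reads with BWA to mm10 and called peaks with MACS2, whose versions are not given in the sources used here. In the deposited files column 7 is the fold enrichment at the summit (a ratio over the local background), columns 8 and 9 are -log10 p and -log10 q (lowest -log10 q per library 1.36 to 1.73), and column 5 is a score that the authors' caller derives from q. Read depth is not in the files, and the number of libraries limits the precision. Every fold value was a whole multiple of 1 step per library (within 0.02 of a step), which gave the background in reads.

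Start sites came from all transcripts of GENCODE M21 protein-coding genes. Pairs of members with a promoter OCR in all 7 libraries were compared by an exact two-sided sign-flip permutation test of the within-library log2 differences (128 sign patterns, smallest p = 0.0156), with Benjamini-Hochberg adjustment over 14 pairs. Promoter assignment, the search for the nearest start, the sign-flip test and the background estimate were tested on simulated data. Uniqueness is the share of 150-base words of the promoter window found once in the reference genome on either strand. Motifs were searched on both strands from 250 bases before to 50 after RefSeq starts (34 of 40 members matched by symbol). Every member is named, and values of every library are given for the 20 members with the highest means among those open in all 7. The members, classes, pairs and lists were chosen with earlier results of these data known. The work used Biopython 1.88, scipy 1.17.1, pandas 2.3.3 and numpy 2.4.6 under Python 3.11.15.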

Additional observations from a re-analysis of the deposited data

How the results depend on the processing

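The number of members with a promoter OCR in all 7 libraries, 22, was 21 to 24 under other thresholds, windows and start sites. H2-Aa dropped out at a -log10 q of at least 5 and with equal list lengths, H2-Q10 with a window of 500 bases, and H2-Ke6 with summits or nearest starts only, while H2-M5 and H2-T3 joined with 3 kb. The counts by class, for the antigen presentation list and for the neighbours stayed within 1.5 times of the reported ones. Percentiles taken over promoter OCRs only, in place of all peaks, gave medians of 80.0 for class I, 51.4 for class II (9 genes, reported 86.5) and 71.2 for accessory genes. The accessory median was 97.4 with a window of 3 kb and 91.3 with nearest starts only. Other peaks numbered 49.9 per library within 2 kb of the genes and 147 within 10 kb.

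Of the 14 pairs, 12 to 13 passed when 1 library was left out. Tap1 minus Tap2 turned to -0.54 with 3 kb, Tap1 minus Tapbp to 0.94 with nearest starts only (0.55 when HPC7-1 was also left out, chosen after seeing the data), and Cd74 minus H2-Ab1 to 0.62 with the outermost start only, an alternative chosen after seeing the data, as was that of protein-coding transcripts only. Tap2 minus Tapbp was -0.04 with 3 kb (exact permutation test, adjusted p = 0.516). With a single group there is no contrast between groups to block by replicate number. Fold enrichment of shared promoters cannot be divided between the genes, and a missing peak is a call below the threshold of that library, not a measured absence.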
